A study of Mus musculus with 6 samples.

Results

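The 10 genes described here make up the MHC class I presentation pathway and the immunoproteasome of the mouse: H2-K1, H2-D1, B2m, Tap1, Tap2, Tapbp, Psmb8, Psmb9, Psmb10 and Nlrc5. They were chosen by symbol from the 26452 genes of the authors' deposited table, by a rule that applies no measured value, and all 10 were found there. Bulk RNA was taken from the right spleen of 10-week-old male mice of 2 genotypes. The KO group was 3 Was -/- mice (129S6/SvEvTac-Wastm1Sbs/J), with 1 library per mouse, KO451, KO452 and KO457. The WT group was 3 wild-type 129S6/SvEvTac mice with the libraries WT453, WT454 and WT455. Was encodes the Wiskott-Aldrich syndrome protein, which drives actin assembly in blood cells, and the targeted allele is carried in every cell of the mouse. The labels name no treatment and no batch, and whether the groups were littermates is not given. The comparison asks whether the spleen of Was -/- mice carries different transcript levels of the class I pathway than the wild-type spleen.

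Class I molecules show peptides from proteins made inside a cell to CD8 T cells and are read by receptors of NK cells. A heavy chain, here H2-K1 or H2-D1, pairs with beta-2 microglobulin, the product of B2m. Peptides are cut by the proteasome, in which Psmb8, Psmb9 and Psmb10 can take the place of the constitutive catalytic subunits Psmb5, Psmb6 and Psmb7 to form the immunoproteasome. Tap1 and Tap2 form the pump that carries peptides into the endoplasmic reticulum, and Tapbp, or tapasin, holds the empty heavy chain at that pump. Nlrc5 is a transactivator that acts at class I promoters together with factors bound to neighbouring elements called the X1, X2 and Y boxes. Lymphocytes and other leukocytes of the spleen make these transcripts at high levels, and interferon gamma raises them.

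By position in GRCm38, 7 of the 10 genes lie on chromosome 17, in and beside the mouse MHC. In the GENCODE annotation these are Tapbp (chr17:33915899-33929292, + strand), H2-K1 (chr17:33996017-34000347, - strand), Psmb9 (chr17:34181987-34187764, - strand), Tap1 (chr17:34187553-34197225, + strand), Psmb8 (chr17:34197721-34201454, + strand), Tap2 (chr17:34203527-34216321, + strand) and H2-D1 (chr17:35262730-35267499, + strand). B2m lies at chr2:122147686-122153083 on the + strand. Nlrc5 (chr8:94434356-94527272, + strand) and Psmb10 (chr8:105935735-105938444, - strand) share chromosome 8. The gene models of Tap1 and Psmb9 run in opposite directions and overlap by 212 bases at their starts.

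The promoters of the heavy chains and of B2m are shown first because they share a spacing of short elements that the choice of the genes did not use. Promoter windows of 300 bases, 250 before the start site and 50 after it, were taken from RefSeq (GRCm38.p6), where 8 of the 10 genes had one. The printed stretches are the 250 bases before the RefSeq start site, 5′ to 3′ on the gene's own strand, and capitals mark the letters named after each. In H2-K1 (chr17:34000348-34000597, - strand) and H2-D1 (chr17:35262844-35263093, + strand) the capitals mark GGGATTCCC, a kappa B-like motif, then TGACG, the core of the X2 box, and ATTGG, the Y box core CCAAT read on the other strand. In B2m (chr2:122147437-122147686, + strand) they mark TGACG and ATTGG. In Tap1 (chr17:34187306-34187555, + strand), shown as a gene of the pathway without that spacing, they mark CCAAT and TGACG.
H2-K1: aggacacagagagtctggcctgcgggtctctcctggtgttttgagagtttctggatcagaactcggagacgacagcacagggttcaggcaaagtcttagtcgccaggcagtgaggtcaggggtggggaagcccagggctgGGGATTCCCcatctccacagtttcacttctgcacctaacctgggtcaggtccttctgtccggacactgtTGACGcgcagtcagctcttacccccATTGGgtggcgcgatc
H2-D1: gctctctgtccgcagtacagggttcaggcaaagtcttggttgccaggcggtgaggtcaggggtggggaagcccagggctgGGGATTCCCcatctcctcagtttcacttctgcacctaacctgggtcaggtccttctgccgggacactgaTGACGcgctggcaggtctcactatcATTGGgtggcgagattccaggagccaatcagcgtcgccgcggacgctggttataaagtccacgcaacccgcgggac
B2m: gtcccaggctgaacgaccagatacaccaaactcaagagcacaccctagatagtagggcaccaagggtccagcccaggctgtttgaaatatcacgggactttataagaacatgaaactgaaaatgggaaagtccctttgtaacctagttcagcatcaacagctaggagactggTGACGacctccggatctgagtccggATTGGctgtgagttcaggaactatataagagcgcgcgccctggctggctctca
Tap1: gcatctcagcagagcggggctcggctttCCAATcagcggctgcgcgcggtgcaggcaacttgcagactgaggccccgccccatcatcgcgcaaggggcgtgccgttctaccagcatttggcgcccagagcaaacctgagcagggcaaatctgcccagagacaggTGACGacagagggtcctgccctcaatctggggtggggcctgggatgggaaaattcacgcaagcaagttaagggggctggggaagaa

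In H2-K1, H2-D1 and B2m the TGACG and the ATTGG stood on the same strand with exactly 20 bases between them. The pair began 41 bases before the start site in H2-K1, 101 bases before it in H2-D1 and 78 bases before it in B2m. Over all 32851 RefSeq promoter windows of the same length, searched for this pair in this order on the gene's own strand only, 0.0578% held it at this spacing. These were 19 windows of 16 genes. The 16 genes included H2-K1, H2-D1 and B2m themselves, and H2-M3, a class I heavy chain outside the 10. Among spacings of 10 to 30 bases, a range set after the spacing had been seen, 20 bases gave the most windows, 19 against 12 for the next. The windows of H2-K1, H2-D1 and B2m are counted in the 19, so this comparison is not independent of them. The other 5 windows, of Tap1, Tapbp, Psmb8, Psmb9 and Psmb10, held no such pair. On their own the motifs were common: CCAAT stood in 37.4% of all windows, TGACG in 20.8% and the interferon-response-like TTTCNNTT in 23.9%, all on both strands. GGGATTCCC was in 0.353% of windows, and H2-K1 and H2-D1 both held it. The H2-K1 and H2-D1 windows were alike along their length, with 211 of 239 aligned bases identical (88.3%), so that their shared motifs are not independent observations. The Tap1 and Psmb9 windows shared 275 bases, with start sites 226 bases apart. A match to these letters is a description of the GRCm38 reference sequence and not a measured binding site. Whether the strain of these mice carries the same letters was not examined.

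**Figure D1:**
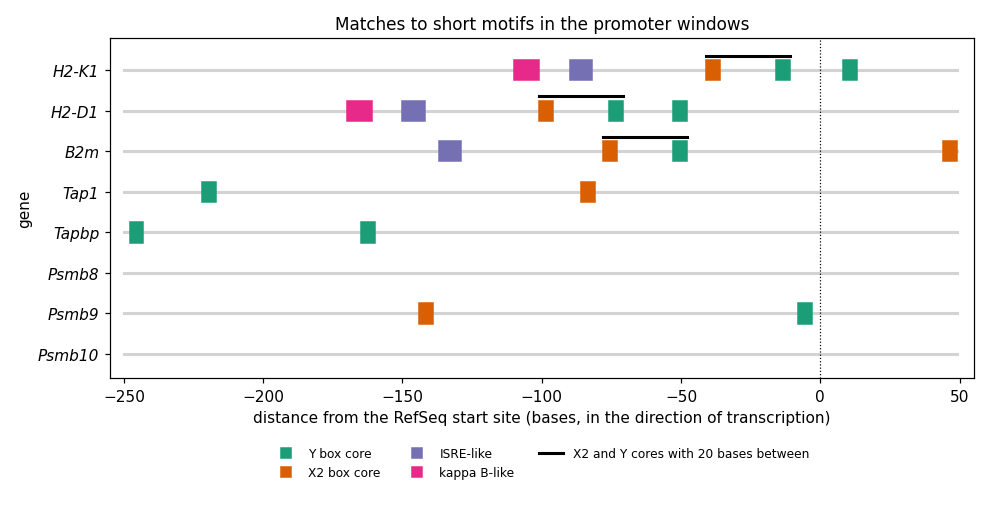
Matches to 4 short motifs in the RefSeq promoter windows of the 8 genes that had one, by distance in bases from the start site (dotted line). Boxes are motif matches on either strand and black bars are X2 and Y cores with 20 bases between, which H2-K1, H2-D1 and B2m hold and the other 5 windows lack.

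The libraries were deep enough for all 10 genes. Between 30661759 and 38402758 reads per library were assigned to genes, and the lowest value of any of the 10 genes was 1044 reads, for Nlrc5. Was, the targeted gene, was at 13.7, 12.2 and 11.3 CPM (reads scaled to the total assigned to genes) in KO451, KO452 and KO457, against 125, 209 and 197 CPM in WT453, WT454 and WT455, a log2 fold change of -3.66 ± 0.25 (SE, adjusted p = 0.0117 by limma). Markers of T cells, B cells and red pulp macrophages, the cells that define a spleen, were detected in every library. WT453 stood apart from the other 5 libraries. Its 10 neutrophil markers summed to 92895 CPM, against 12537 to 57555 CPM in KO libraries and 5333 and 10791 CPM in the other WT libraries. Its immediate early genes summed to 1835 CPM, against 273 to 479 CPM in KO libraries and 605 and 531 CPM in the other WT libraries. The value without WT453 is therefore given beside results that rest on it.

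Transcript levels of the class I pathway in KO spleens stayed within the spread of the libraries, apart from Nlrc5, which lay below the WT range without passing the test over all genes. None of the 10 passed an adjusted p of 0.05 (limma with Benjamini-Hochberg adjustment over 22071 genes), at adjusted p from 0.394 to 0.959. Only 2 of the 22071 genes passed it, or 0.00906%, so that 0 of 10 is near the background. The median log2 fold change, KO over WT, was -0.19 for the 10 genes and -0.03 for all genes tested, with 7 of the 10 negative and 3 positive. Without WT453 the median was -0.27, and without KO451 it was 0.01. By unadjusted p, 1 of the 10 (Nlrc5) was under 0.05, beside 11% of all genes. Nlrc5 was also the only one of the 10 whose KO and WT values did not overlap. Non-overlap with KO lower was seen for 9.94% of all genes tested, and non-overlap with KO higher, which none of the 10 showed, for 9.54%. By the FDR of the authors' deposited table, none of the 10 was under 0.05, the lowest being 0.136 for Nlrc5, while 3.58% of all 26452 genes were.

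**Figure D2:**
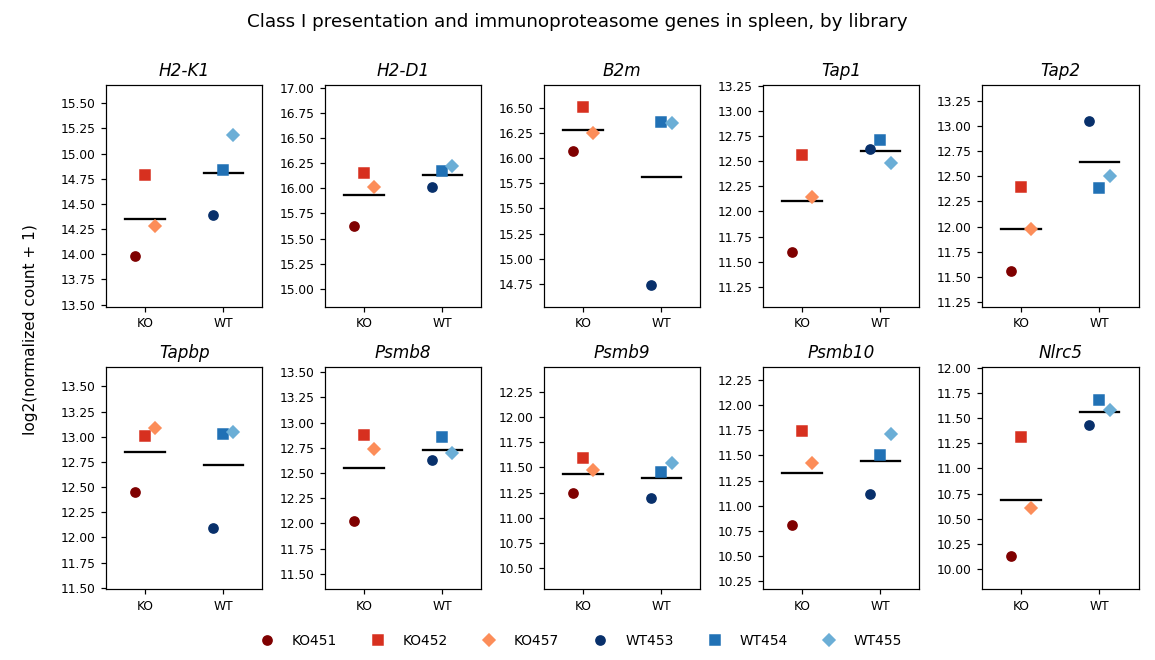
The deposited log2(normalized count + 1) of each of the 10 genes in each library, KO left and WT right, with group means as black lines and the same height of scale in every panel. KO451 is the lowest KO point in all 10 panels, WT453 falls far below the other WT points for B2m and Tapbp, and only the Nlrc5 panel shows groups that do not overlap.

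Nlrc5, the transactivator, had the lowest level per length and the most negative fold change of the 10. Its deposited values, log2(normalized count + 1), were 10.13, 11.31 and 10.61 in KO451, KO452 and KO457, against 11.43, 11.68 and 11.58 in WT453, WT454 and WT455. All 3 KO values lay below all 3 WT values, with KO452 only just below WT453, and the KO values were spread over more than 1 log2 unit while the WT values were close together. The log2 fold change was -0.88 ± 0.31 (SE, n = 3 each; 95% interval -1.61 to -0.15), or 0.544 of the WT level. The unadjusted p was 0.0244 and the adjusted p 0.394 by limma. Leaving out each library in turn gave log2 fold changes from -1.19 to -0.60, with KO below WT each time. The value without WT453 was -0.95. In RPKM, which is CPM per kilobase of exon, Nlrc5 was at 3.56, 8.98 and 5.07 in KO spleens, against 9.76, 12.3 and 11.3 in WT spleens. An opposite-strand long noncoding gene, 9330175E14Rik, overlaps the span of Nlrc5, introns included, by 748 bases. Its mean was 5.83 CPM, against 72.2 CPM for Nlrc5 itself.

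The level of Nlrc5 ran with the lymphocyte markers over part of the libraries. All 10 B cell markers and all 10 T cell markers had negative fold changes, at medians of -0.78 and -0.49 on the log2 scale, or -1.13 and -0.93 without WT453, and by limma 0 of each passed the adjusted threshold, with 2 B cell markers and 0 T cell markers at an unadjusted p under 0.05. The B cell markers summed to 1537, 3236 and 1687 CPM in KO451, KO452 and KO457, against 1941, 5507 and 4277 CPM in WT453, WT454 and WT455. The T cell markers summed to 495, 1020 and 624 CPM in the KO libraries, against 581, 1529 and 1388 CPM in the WT libraries. KO452 was thus the KO library with the most lymphocyte transcripts and with the most Nlrc5. WT453 had lymphocyte sums near those of KO451 and KO457, and its Nlrc5 was above that of all KO libraries, though only just above KO452. Erythroid markers had the opposite sign: all 10 had higher values in every KO library than in any WT library, with 0 past the adjusted threshold and 10 at an unadjusted p under 0.05 by limma, and summed to 8508, 2018 and 2323 CPM in KO libraries, against 304, 512 and 941 CPM in WT libraries. The part of these cell markers in the values of Nlrc5 and of the other 9 genes was not tested. In bulk tissue, fewer cells that make a transcript and less of it per cell cannot be told apart.

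Set against 8 genes common to all leukocytes, Nlrc5 no longer separated the groups. Its log2 level relative to the mean of that list, which includes Ptprc (the pan-leukocyte phosphatase CD45), was -4.37, -3.48 and -4.30 in KO451, KO452 and KO457, against -3.57, -3.34 and -3.37 in WT453, WT454 and WT455. KO452 then lay above WT453, and the difference of the means was -0.63. Relative to Ptprc alone it was -0.49, with overlap. Ptprc itself had a log2 fold change of -0.38 ± 0.28 (SE, adjusted p = 0.641 by limma). These ratios are descriptions and were not tested.

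The classical heavy chains H2-K1 and H2-D1, which bind the peptide, were a little lower on average in KO spleens, within the spread of the libraries. H2-K1 had log2 values of 13.98, 14.79 and 14.28 in KO451, KO452 and KO457, against 14.39, 14.84 and 15.18 in WT453, WT454 and WT455. KO452 lay above WT453, so the groups overlapped, and the log2 fold change was -0.46 ± 0.30 (SE, n = 3 each; 95% interval -1.16 to 0.25; adjusted p = 0.593 by limma). H2-D1 had log2 values of 15.63, 16.15 and 16.01 in the KO libraries, against 16.01, 16.17 and 16.22 in the WT libraries. Apart from KO451 these values were all within a narrow band, and the log2 fold change was -0.20 ± 0.23 (SE; 95% interval -0.74 to 0.34; adjusted p = 0.763 by limma). The 6 libraries fell in the same order for both heavy chains: KO451, KO457, WT453, KO452, WT454 and WT455 from low to high. Without WT453 neither gene's groups overlapped, as for 21.2% of all genes tested in the lower direction, and their log2 fold changes were -0.66 and -0.27. The pair are close copies of each other and of other class I genes. Of all stretches of 50 bases in the transcripts of H2-K1 and H2-D1, 9.63% and 12.8% also occur in transcripts of other genes. Counts could be shared among these genes, to a degree that was not measured.

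B2m, the light chain of every class I molecule, was the most abundant of the 10 and had a positive fold change that came from 1 library. Its log2 values were 16.07, 16.51 and 16.25 in KO451, KO452 and KO457, against 14.74, 16.36 and 16.35 in WT453, WT454 and WT455. The 5 libraries other than WT453 lay close together, and WT453 was more than 1 log2 unit below them. The log2 fold change was 0.46 ± 0.45 (SE, n = 3 each; 95% interval -0.61 to 1.53; adjusted p = 0.724 by limma), and without WT453 it was -0.08. In CPM, B2m was at 1850, 2800 and 2140 in the KO libraries, against 822, 2690 and 2610 in the WT libraries. The heavy chains of the same library were not low to that degree: WT453 was the lowest WT library for both, at 648 CPM for H2-K1 and 1990 CPM for H2-D1. In the annotation B2m lies wholly within Patl2 on the opposite strand, which had a mean of 0.384 CPM.

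The peptide pump genes Tap1 and Tap2 had the most negative fold changes after Nlrc5, also without passing the test. Tap1 had log2 values of 11.60, 12.56 and 12.14 in KO451, KO452 and KO457, against 12.62, 12.71 and 12.48 in WT453, WT454 and WT455. Only KO452 reached into the WT range, and the log2 fold change was -0.51 ± 0.27 (SE, n = 3 each; 95% interval -1.13 to 0.12; adjusted p = 0.525 by limma). Tap2 had log2 values of 11.56, 12.39 and 11.98 in the KO libraries, against 13.05, 12.38 and 12.50 in the WT libraries. KO452 was again inside the WT range, at the level of WT454, and WT453 was the highest of all. The log2 fold change of Tap2 was -0.67 ± 0.29 (SE; 95% interval -1.34 to 0.00; unadjusted p = 0.0506, adjusted p = 0.457 by limma), and -0.46 without WT453. The authors' deposited table gives Tap2 a p of 0.02 and an FDR of 0.216.

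Within a library the 2 pump subunits stayed close to each other, apart from WT453. The log2 ratio of Tap2 to Tap1 normalized counts was -0.04, -0.17 and -0.16 in KO451, KO452 and KO457, against 0.43, -0.33 and 0.02 in WT453, WT454 and WT455. The difference of the means was -0.16, and 0.03 without WT453. Tap1 and Psmb9, which start from the same stretch of DNA in opposite directions, kept less to one ratio. The log2 ratio of Tap1 to Psmb9 was 0.35, 0.97 and 0.66 in the KO libraries, against 1.43, 1.27 and 0.94 in the WT libraries. KO452 and WT455 overlapped by a small margin, and the difference of the means was -0.55. These ratios were chosen after the values had been seen and carry no test.

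Tapbp, the tapasin that bridges the pump and the heavy chain, had the same low point as B2m. Its log2 values were 12.45, 13.01 and 13.09 in KO451, KO452 and KO457, against 12.09, 13.03 and 13.05 in WT453, WT454 and WT455. WT453 was the lowest of all 6 and KO451 the next, while the other 4 libraries differed little. The log2 fold change was 0.13 ± 0.32 (SE, n = 3 each; 95% interval -0.63 to 0.89; adjusted p = 0.92 by limma) and was -0.19 without WT453. The gene span of Tapbp, introns included, overlaps that of the same-strand gene Zbtb22 by 3422 bases. Zbtb22 had a mean of 43.4 CPM, against 217 CPM for Tapbp. Of the 50-base stretches in Tapbp transcripts, 2.87% also occur in transcripts of other genes. Only in that small part do the transcripts themselves leave reads open to being shared.

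The immunoproteasome subunits had small fold changes, all within 0.2 log2 units of 0. Psmb8, which takes the place of Psmb5, had log2 values of 12.02, 12.88 and 12.74 in KO451, KO452 and KO457, against 12.63, 12.86 and 12.70 in WT453, WT454 and WT455. KO451 alone was low, and the log2 fold change was -0.18 ± 0.26 (SE, n = 3 each; 95% interval -0.80 to 0.43; adjusted p = 0.825 by limma), or 0.08 without KO451. Psmb9, which takes the place of Psmb6, had log2 values of 11.25, 11.59 and 11.47 in the KO libraries, against 11.20, 11.45 and 11.54 in the WT libraries. Its values interleaved, and it had the smallest fold change of the 10, 0.05 ± 0.20 (SE; 95% interval -0.41 to 0.51; adjusted p = 0.959 by limma). Psmb10, which takes the place of Psmb7, had log2 values of 10.81, 11.74 and 11.42 in the KO libraries, against 11.12, 11.50 and 11.71 in the WT libraries. KO451 was the lowest and KO452 the highest of all 6. The log2 fold change of Psmb10 was -0.12 ± 0.29 (SE; 95% interval -0.80 to 0.56; adjusted p = 0.915 by limma), and 0.14 without KO451. These intervals still allow differences of more than 0.4 log2 units in either direction for all 3 subunits.

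**Figure D3:**
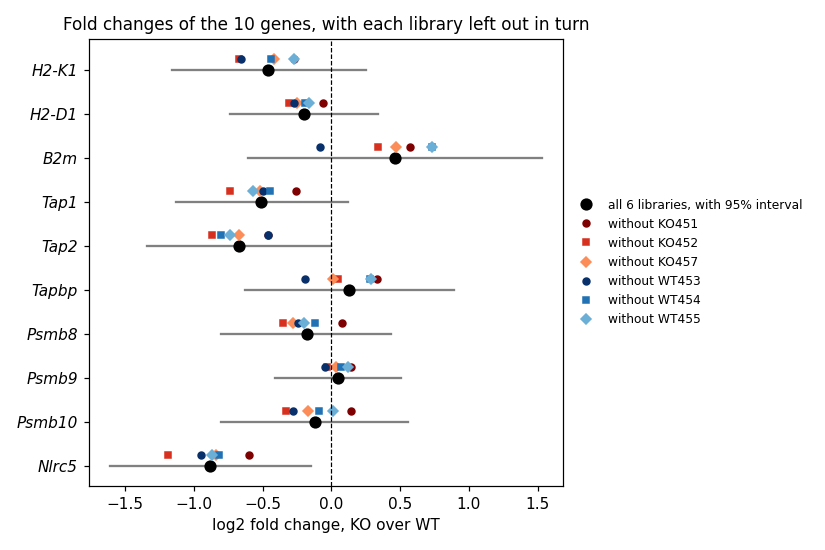
Log2 fold change of each of the 10 genes, KO over WT, from all 6 libraries (black points, grey lines are 95% intervals) and with each library left out in turn (coloured marks above). Only the Nlrc5 interval, -1.61 to -0.15, lies wholly below 0. B2m is at 0.46 with all libraries and at -0.08 without WT453.

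The plot of fold changes shows which libraries set each value. For Nlrc5, H2-K1, H2-D1, Tap1 and Tap2 all 6 left-out values lay below 0. For B2m, Tapbp and Psmb9 the value crossed 0 when WT453 was left out, and for Psmb8 and Psmb10 when KO451 was left out. Psmb9 also crossed it without KO452, at -0.03, and Psmb10 without WT455, at 0.01. KO451 was the lowest of the 6 libraries for 7 of the 10 genes and the lowest KO library for all 10, while KO452 was the highest KO library for 9. The mean deviation of the 10 genes from their 6-library means was -0.52, 0.23 and -0.07 log2 units in KO451, KO452 and KO457, against -0.14, 0.23 and 0.26 in WT453, WT454 and WT455. The KO libraries thus differed from each other by more than the 2 groups did. KO451 was also the library with the highest erythroid sum, 8508 CPM, and the lowest summed pan-leukocyte level, 5177 CPM, against 7024 and 7190 CPM in KO452 and KO457 and 9623, 8589 and 8152 CPM in WT453, WT454 and WT455. Without KO452 the groups did not overlap for 5 genes, H2-K1, H2-D1, Tap1, Tap2 and Nlrc5, all lower in KO, at a background of 15.3% of all genes.

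Relative to the pan-leukocyte list the 10 genes had differences of both signs, in part set by WT453. The differences of mean log2 level, KO minus WT, were -0.63 for Nlrc5, -0.42 for Tap2, -0.25 for Tap1, -0.20 for H2-K1 and 0.05 for H2-D1. They were 0.07 for Psmb8, 0.13 for Psmb10, 0.30 for Psmb9, 0.38 for Tapbp and 0.71 for B2m. The groups overlapped for all 10 on this scale. Without WT453 the differences were 0.17 for B2m, 0.06 for Tapbp, 0.19 for Psmb9, -0.03 for Psmb10, 0.01 for Psmb8 and -0.02 for H2-D1, while H2-K1 stood at -0.41, Tap2 at -0.22, Tap1 at -0.25 and Nlrc5 at -0.70. Without WT455 that of H2-K1 was 0.00. Relative to Ptprc alone, B2m stood at 2.0, 2.16 and 2.24 log2 units in KO451, KO452 and KO457, against 0.75, 1.43 and 1.67 in WT453, WT454 and WT455. Tapbp stood at -1.61, -1.35 and -0.93 log2 units in the KO libraries, against -1.90, -1.90 and -1.62 in the WT libraries. Both were then higher in every KO library than in any WT library, Tapbp by a small margin, and the other 8 overlapped. On this scale 16.2% of all other genes tested were likewise higher in KO with no overlap.

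Per length of exon the genes kept a steep order, from B2m at the top to Nlrc5 at the bottom. In RPKM, B2m averaged 2640 ± 568 in KO spleens and 2370 ± 1230 in WT spleens (SD, n = 3 each). H2-D1 averaged 693 ± 156 RPKM in KO spleens and 871 ± 86.7 RPKM in WT spleens, and H2-K1 208 ± 72.5 RPKM in KO spleens and 312 ± 88.6 RPKM in WT spleens. The step between the 2 heavy chains held in every library: the log2 ratio of H2-K1 to H2-D1 normalized counts was -1.65, -1.36 and -1.73 in KO libraries, against -1.62, -1.33 and -1.04 in WT libraries. The next genes were far lower and close to each other. Tapbp averaged 58.6 ± 14.7 RPKM in KO spleens and 61 ± 21.6 RPKM in WT spleens, and Psmb8 51.8 ± 17.1 RPKM in KO spleens and 62.7 ± 6.87 RPKM in WT spleens. Psmb10 averaged 44.3 ± 15.9 RPKM in KO spleens and 51.8 ± 11.4 RPKM in WT spleens, and Tap2 31.2 ± 10.6 RPKM in KO spleens and 53.6 ± 12.2 RPKM in WT spleens. Within a library Tapbp, Psmb8, Psmb10 and Tap2 kept this order from high to low in every library except WT453. There Tap2 was the highest of them at 67.6 RPKM and Tapbp the lowest at 36 RPKM. Psmb8 was above Psmb10 in every library, in WT455 only at 61.8 against 61.7 RPKM. Tap1 averaged 23.7 ± 8.89 RPKM in KO spleens and 35.5 ± 3.27 RPKM in WT spleens, Psmb9 21.5 ± 3.59 RPKM in KO spleens and 23 ± 3.29 RPKM in WT spleens, and Nlrc5 5.87 ± 2.8 RPKM in KO spleens and 11.1 ± 1.29 RPKM in WT spleens.

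The immunoproteasome subunits can be read against the constitutive subunits whose place they take, whose fold changes had the opposite sign on average. Psmb5, Psmb6 and Psmb7 had log2 fold changes of 0.16 ± 0.28, 0.39 ± 0.20 and 0.51 ± 0.23 (SE), with a median of 0.39, adjusted p from 0.477 to 0.871 by limma, and none at an unadjusted p under 0.05. Psmb6 had log2 values of 11.87, 11.90 and 12.17 in KO451, KO452 and KO457, against 11.84, 11.45 and 11.47 in WT453, WT454 and WT455. Psmb6 was the only one of these 3 genes without overlap, and by a small margin. The log2 ratio of Psmb8 to Psmb5 normalized counts was 0.43, 1.52 and 0.88 in the KO libraries, against 0.66, 1.83 and 1.38 in the WT libraries, a difference of -0.35 (two-sided exact permutation test, p = 0.5, adjusted over the 3 ratios 0.5). The log2 ratio of Psmb9 to Psmb6 was -0.61, -0.31 and -0.70 in the KO libraries, against -0.65, -0.00 and 0.07 in the WT libraries, a difference of -0.35 (exact p = 0.3, adjusted 0.45). The log2 ratio of Psmb10 to Psmb7 was -1.47, 0.01 and -0.85 in the KO libraries, against -0.69, 0.11 and 0.17 in the WT libraries, a difference of -0.63 (exact p = 0.2, adjusted 0.45). All 3 mean ratios were lower in KO spleens and all 3 overlapped between the groups, and 3 libraries against 3 cannot give an exact p under 0.1. Leaving out each library in turn moved the difference between -0.66 (without WT453) and -0.08 (without WT454) for Psmb8 to Psmb5. It moved between -0.58 (without WT453) and -0.22 (without WT455) for Psmb9 to Psmb6, and between -1.02 (without KO452) and -0.28 (without KO451) for Psmb10 to Psmb7. The sign stayed negative in all of these. WT453 had the lowest WT ratio for all 3 pairs, and KO451 the lowest KO ratio for Psmb8 and Psmb10.

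The other subunits of the 20S core, which both forms of the proteasome share, had the direction of the constitutive subunits. All 11 had positive log2 fold changes, from 0.06 to 0.36 with a median of 0.20, and 0 passed limma's test, adjusted or not. Psma4 was at 11.87, 12.10 and 12.11 in KO451, KO452 and KO457, against 11.60, 11.76 and 11.69 in WT453, WT454 and WT455 on the log2 scale, a fold change of 0.34 ± 0.18 (SE, adjusted p = 0.517 by limma). Psmb1 had a log2 fold change of 0.32 ± 0.18 (SE, adjusted p = 0.535 by limma). Psma4 and Psmb1 did not overlap between the groups, and Psma1, at 0.36 ± 0.23 (SE, adjusted p = 0.578 by limma), did. Without WT453 the median of the 11 was 0.34.

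Genes that load and trim peptides beside the 10 showed no common direction. Of 14 such genes, 8 had positive and 6 negative log2 fold changes, with a median of 0.05, or -0.05 without WT453. By limma 0 passed the adjusted threshold and 1, Psme3, an unadjusted p of 0.05. Psme3, a proteasome activator subunit of the nucleus, was at log2 13.48, 12.64 and 12.70 in KO451, KO452 and KO457, against 12.06, 12.26 and 12.44 in WT453, WT454 and WT455, a fold change of 0.69 ± 0.27 (SE, adjusted p = 0.431 by limma). Its groups did not overlap, with KO451 highest. Lnpep, an aminopeptidase of endosomes, was at 12.82, 12.65 and 12.45 in KO libraries, against 12.98, 13.13 and 13.07 in WT libraries, a log2 fold change of -0.42 ± 0.19 (SE, adjusted p = 0.469 by limma). Canx, the chaperone calnexin that holds the new heavy chain, had a log2 fold change of 0.30 ± 0.20 (SE, adjusted p = 0.61 by limma). Lnpep and Canx also did not overlap between the groups, Canx by a margin of about 0.01 log2 units.

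The nonclassical and class I-like heavy chains had more negative than positive fold changes. Of 17 such genes listed, 14 were in the table, and 9 of them had negative and 5 positive log2 fold changes, with a median of -0.42, or -0.55 without WT453. None passed the adjusted threshold by limma, at adjusted p from 0.347 to 0.96, and 5 had an unadjusted p under 0.05. For 6 of the 14 the KO values all lay below the WT values, at a background of 9.94%: Cd1d1, H2-Q4, H2-Q6, H2-Q10, H2-T10 and H2-T23, the last by less than 0.01 log2 units. H2-Q4, H2-T10 and H2-T23 are named after their values were seen. In the authors' deposited table Cd1d1, H2-Q10 and H2-Q6 had an FDR under 0.05, at 0.0143, 0.028 and 0.0376, beside 3.58% of all genes.

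Cd1d1, which presents lipids to NKT cells, was at log2 9.36, 9.80 and 9.46 in KO451, KO452 and KO457, against 10.52, 10.29 and 10.17 in WT453, WT454 and WT455, a fold change of -0.79 ± 0.22 (SE, adjusted p = 0.347 by limma). H2-Q6, of the Qa-2 group, was at 11.51, 12.64 and 11.95 in KO libraries, against 13.34, 13.03 and 12.88 in WT libraries, a log2 fold change of -1.06 ± 0.31 (SE, adjusted p = 0.354 by limma). H2-Q10, known for its expression in liver, was at 7.33, 7.97 and 6.68 in KO libraries, against 8.18, 9.06 and 8.88 in WT libraries, a log2 fold change of -1.38 ± 0.41 (SE, adjusted p = 0.355 by limma). Each of the 3 KO libraries was thus lower than each WT library for all 3 genes, with KO452 closest to the WT libraries. These genes share sequence with their relatives: 32% of the 50-base stretches of H2-Q6, 19% of those of H2-Q10 and 19.1% of those of Cd1d1 also occur in other genes' transcripts. How far shared reads alter their values was not measured, and these percentages do not give the size of it. No source used here says how the authors assigned shared reads.

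**Figure D4:**
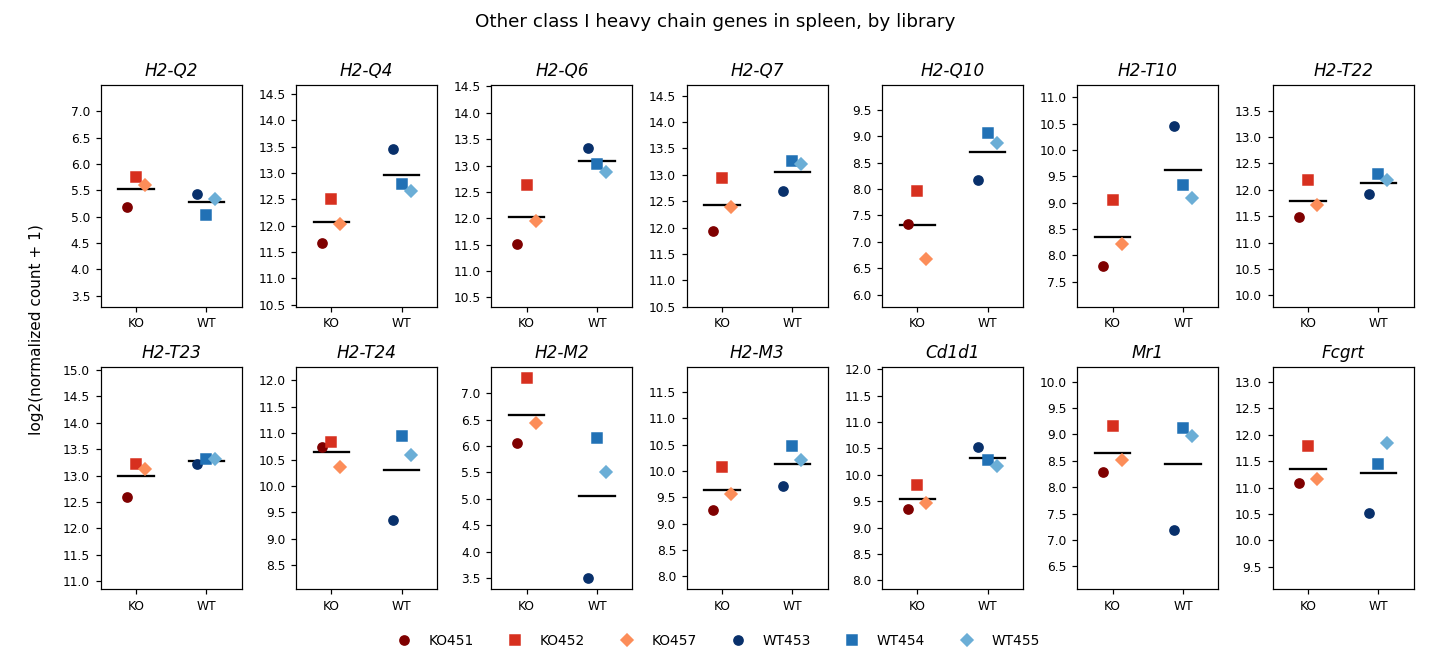
The deposited log2(normalized count + 1) of 14 nonclassical and class I-like heavy chain genes in each library, KO left and WT right, with group means as black lines and the same height of scale in every panel. In 6 panels, Cd1d1, H2-Q4, H2-Q6, H2-Q10, H2-T10 and H2-T23, all KO points lie below all WT points, and WT453 is far below the other libraries for H2-M2 and Mr1.

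The plot of the other heavy chains shows WT453 at both ends of the WT range. It was the highest WT library for H2-Q4, H2-Q6, H2-T10 and Cd1d1, as it was for Tap2. It was the lowest WT library for H2-Q10, H2-Q7, H2-T24, H2-M2, Mr1 and Fcgrt among others, as it was for B2m and Tapbp. No common direction of WT453 therefore held across class I genes.

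Regulators of the class I genes had more negative than positive fold changes, and WT453 was low for many of them. Of 19 such genes, 12 had negative and 7 positive log2 fold changes, with a median of -0.21, or -0.46 without WT453. By limma 0 passed the adjusted threshold and 1, Ifngr1, an unadjusted p of 0.05. Ifngr1, the ligand-binding chain of the interferon gamma receptor, was at log2 11.47, 11.56 and 11.48 in KO451, KO452 and KO457, against 11.89, 12.09 and 11.92 in WT453, WT454 and WT455, a fold change of -0.46 ± 0.17 (SE, unadjusted p = 0.0296, adjusted p = 0.408 by limma). Its groups did not overlap and its spread within a genotype was small. Ifng, the interferon itself, was at 4.49, 5.36 and 5.38 in KO libraries, against 5.88, 5.62 and 5.96 in WT libraries, a log2 fold change of -0.74 ± 0.43 (SE, adjusted p = 0.545 by limma). Socs1, an inhibitor of interferon signalling, had a log2 fold change of -0.70 ± 0.41 (SE, adjusted p = 0.549 by limma) with overlap. The groups did not overlap, with KO lower, for 4 of the 19, at a background of 9.94% of all genes. The mean deviation of the list was -0.31, 0.23 and -0.04 log2 units in KO451, KO452 and KO457, against -0.70, 0.43 and 0.39 in WT453, WT454 and WT455. Irf1, a transcription factor of the interferon response and named here after its values were seen, was at log2 11.36, 12.50 and 11.97 in KO libraries, against 9.91, 12.65 and 12.37 in WT libraries. It was lowest in WT453, the library with the least B2m and Tapbp, and next lowest in KO451.

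A list of receptors, most of them receptors of lymphocytes for class I molecules, was lower on average in KO spleens, again short of the threshold. The list also holds Pirb and Lilrb4a, for which WT453 was the highest WT library, at log2 13.18 for Pirb against 11.93 and 12.06 in WT454 and WT455. The list of 12 symbols had 13 rows in the table, since Lilrb4a is the symbol of 2 rows, and 12 rows had negative log2 fold changes, with a median of -0.65, or -1.01 without WT453. By limma 0 passed the adjusted threshold and 1, Klrd1, an unadjusted p of 0.05. Klrd1, the CD94 chain of NK receptors, was at log2 8.79, 8.86 and 8.64 in KO451, KO452 and KO457, against 8.99, 9.91 and 9.60 in WT453, WT454 and WT455, a fold change of -0.74 ± 0.29 (SE, unadjusted p = 0.0354, adjusted p = 0.424 by limma). Klra9 and Klra8, receptors of the Ly49 family, had log2 fold changes of -0.91 ± 0.45 and -0.87 ± 0.46 (SE, adjusted p = 0.508 and 0.525 by limma), both with overlap. Whether the strain of these mice carries the same Ly49 genes as the GRCm38 reference was not examined, so reads may be credited to the wrong family member. The 8 NK cell markers had the same sign: all had negative log2 fold changes, with a median of -0.49, or -1.02 without WT453, and they summed to 168, 303 and 201 CPM in KO libraries, against 236, 464 and 443 CPM in WT libraries. The part of NK cell numbers in the receptor values was not tested.

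**Figure D5:**
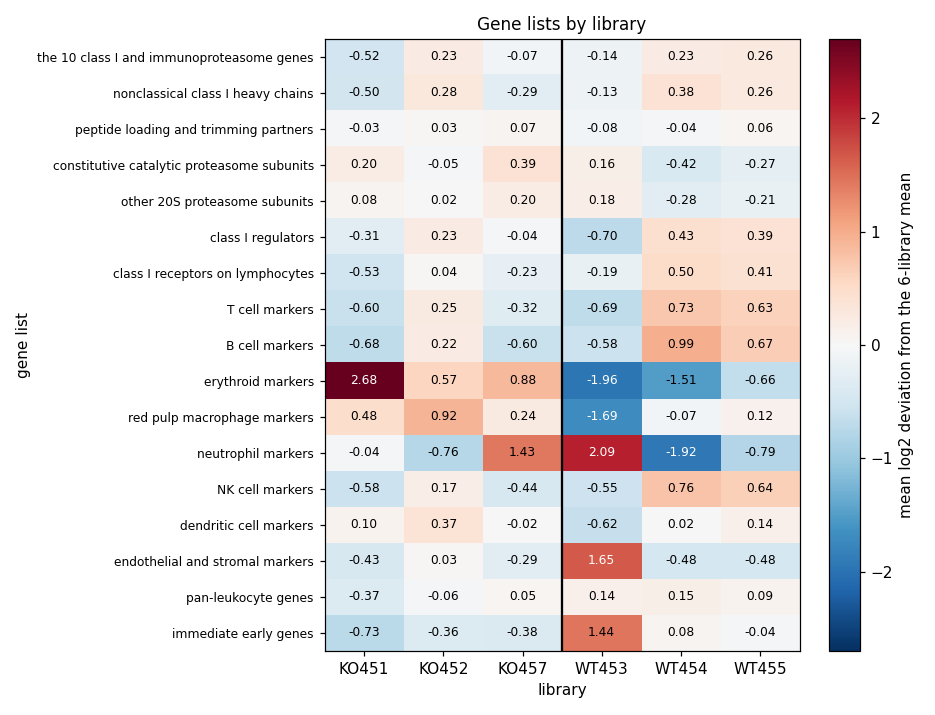
Mean log2 deviation from the 6-library mean for the 10 genes and for 16 gene lists (rows) in each library (columns, KO left of the black line and WT right of it), with red above and blue below the mean. The row of the 10 genes runs from -0.52 in KO451 to 0.26 in WT455, while neutrophil markers reach 2.09 and immediate early genes 1.44 in WT453 and erythroid markers 2.68 in KO451.

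Across the libraries the 10 genes followed the lymphocyte lists only loosely, as the plot of gene lists shows. KO452, the KO library with the highest T cell, B cell and NK cell values, was also the highest KO library for the 10 genes, and KO451 was the lowest KO library for all 4. WT453 had T cell and B cell deviations of -0.69 and -0.58 log2 units, but -0.14 for the 10 genes. All 10 markers of red pulp macrophages had positive fold changes, with a median log2 fold change of 0.99, or 0.47 without WT453. Dendritic cell markers had a median of 0.40, or 0.03 without WT453. Neutrophil markers had a median of 0.49, or 1.70 without WT453, and endothelial and stromal markers one of -0.46, which turned to 0.41 without WT453. With all 6 libraries every gene of these 2 lists overlapped between the groups. Dcn, a stromal marker, was at 0 reads in 4 of the 6 libraries. Immediate early genes had a median of -0.86, or -0.47 without WT453. None of the genes of these lists passed the adjusted threshold by limma. By the authors' deposited FDR, 1 red pulp macrophage marker, 1 dendritic cell marker and 1 immediate early gene were under 0.05.

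A handful of genes outside the pathway had nearly the same pattern over the 6 libraries as the mean of the 10. Among 8904 genes with a mean of at least 10 CPM, the 5 with the highest Pearson correlation to that mean were Atp2b1 (r = 0.995), a calcium pump of the plasma membrane, Flii (0.989), an actin-binding protein, Tbc1d1 (0.989), a Rab GTPase-activating protein, Cpsf3 (0.984), the nuclease that cleaves pre-mRNA 3′ ends, and Dmpk (0.98), a protein kinase. A correlation of 0.9 or more was reached by 115 genes, 1.29% of those compared, and these are descriptions over 6 libraries with no test. Atp2b1 was at log2 11.01, 12.03 and 11.56 in KO451, KO452 and KO457, against 11.57, 11.98 and 12.03 in WT453, WT454 and WT455, a fold change of -0.33 ± 0.30 (SE, adjusted p = 0.717 by limma). Like the mean of the 10, it was lowest in KO451, and WT453 lay below the other WT libraries. Single genes of the 10 depart from that shape, such as Tap2, which was highest in WT453.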

How the data were processed

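The authors deposited 1 table of 26452 genes for the 6 spleen libraries. Its entries are log2 values of normalized counts plus 1. The authors' deposited counts, undone from log2 and from the library's scaling, were whole reads for 100% of entries within 0.001. The table also holds the authors' deposited log2 fold change, p-value and FDR. Per the submitters' processing notes, GRCm38, STAR 2.5.3a, StringTie 1.3.1c, FastQC 0.11.5 and DESeq were used, with no role named. Whether the strain of these mice matches the GRCm38 reference in the number and sequence of these genes was not examined. How reads were counted, and on which strand, is not stated, so reads of overlapping genes may be mixed. By whole gene spans, introns included, this touches 8 of the 10 genes. KO column names carry a suffix of unstated meaning that WT names lack.

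Limma 3.58.1 in R 4.3.3 was run with an intensity trend and 2 groups on the deposited log2(normalized count + 1). Genes with a mean normalized count of at least 1 entered, 22071 in all, with 4381 left out. Adjustment was by Benjamini-Hochberg over all genes tested, at 0.05, and the test was tried on simulated data. This scale understates changes of genes with few reads. CPM, RPKM (GENCODE exon lengths, with 26404 identifiers found) and list sums came from the recovered reads. Log2 ratios and relative levels are differences of the deposited log2(normalized count + 1). The p-values cover only how these 6 mice vary. Named were all 10 genes, the 3 smallest p in each of 6 related lists, Was, Ptprc and the 5 genes most like the mean of the 10. Members and lists were chosen with earlier results of these data known. Of 6 pancreas markers 3 were in the table, at 32.2 to 44.1 CPM in sum in KO libraries and 14 to 24.2 CPM in WT libraries. Alternatives were other pseudocounts and filters, quantile normalization, voom, a quality weight per library, each library left out and a threshold of 0.01.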

Additional observations from a re-analysis of the deposited data

How the results depend on the processing

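None of the 10 genes passed the adjusted threshold under any of the 13 alternative fits or at a threshold of 0.01. Nlrc5, H2-K1, H2-D1, Tap1 and Tap2 kept a negative fold change under all 13. Over them Nlrc5 ranged from -1.19 to -0.60, with adjusted p from 0.0698 to 0.738. With quality weights for the libraries, in which WT453 had the lowest weight (0.1597), B2m was at -0.03, Tapbp at -0.11 and Psmb9 at -0.05, all positive with equal weights. Leaving out each library in turn gave ranges of -0.08 to 0.73 for B2m, -0.19 to 0.33 for Tapbp, -0.05 to 0.14 for Psmb9, -0.35 to 0.08 for Psmb8 and -0.33 to 0.14 for Psmb10. The count of the 10 genes lower in KO with no overlap ranged from 1 to 5, and the difference in the Tap2 to Tap1 ratio from -0.35 to 0.03. Over all genes the test called 2 genes, against 16 with quality weights, 1 with voom, 0 at a threshold of 0.01 and 0 to 2 with a library left out. The cause of these shifts was not tested. No paired analysis was possible because the groups share no replicate numbers. Depth does not limit these genes, which all had at least 1044 reads. With 3 mice a group, the widest 95% interval of a fold change was that of B2m, from -0.61 to 1.53 on the log2 scale, and overlapping or similar genes limit the heavy chain values further.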
